A study of Musca domestica with 10 samples.

Results

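The genes described here had next to no transcript in house fly embryos before gastrulation and appeared at gastrula. A gene was included when both syncytial blastoderm libraries were below 1 CPM, the mean of the 2 cellular blastoderm libraries was below 2 CPM, and both gastrula libraries stood at 10 CPM or more. CPM, counts per 1000000, is the number of reads of a gene relative to all gene reads of its library. The rule found 48 of the 15803 genes listed in the files. Levels at the first 3 stages therefore chose the genes and are given below as a description, with no test, while germ band extension and dorsal closure took no part in the choice.

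Whole Musca domestica embryos were collected at 5 stages, as 2 biological replicates of 100 pooled embryos per stage, and their RNA was sequenced as paired ends. The earliest was syncytial blastoderm, with nuclei in a common cytoplasm, and then came cellular blastoderm and gastrula. Germ band extension followed, and the series ended at dorsal closure. No genotype, strain, treatment or age in hours is given in the labels, and the labels set no group apart from another by anything but its stage. The shallowest library, syncytial blastoderm replicate 1, held 16288442 gene reads, and the others held 42479342 to 83604709. A gene with 3 reads was thus at 0.184 CPM in the former and at no more than 0.0706 CPM elsewhere.

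In fly embryos, the first nuclear divisions run on RNA and protein loaded into the egg by the mother. Transcription from the embryo's own genome builds up during the blastoderm stages, and in Drosophila melanogaster many patterning genes are already on when gastrulation begins. At gastrulation the future muscle and gut move inside, the first nerve precursors are set aside and, as the germ band extends, the segments of the trunk become visible. Genes that are off at the blastoderm and on at gastrula belong to a later phase of embryonic transcription. The files identify genes only by MDOA identifiers, and 0 of these matched the reference gene table, so no gene name, function or sequence is given. In whole embryos, fewer cells expressing a gene and less RNA per cell cannot be told apart. CPM values are not corrected for gene length, so differences in level between genes are differences in reads.

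Before gastrulation the 48 genes together took 0.000332% and 0.000586% of the gene reads in the syncytial blastoderm libraries (replicate 1 first here and throughout) and 0.00399% and 0.00669% at cellular blastoderm. Their share was then 0.146% and 0.103% at gastrula, 0.274% and 0.462% at germ band extension, and 0.503% and 0.601% at dorsal closure. The summed share was thus higher in each later stage, with no overlap between the libraries of successive stages. A few genes carried much of the late increase. The 3 with the highest mean at dorsal closure (MDOA008248, MDOA000889 and MDOA008661) held 12% and 11% of the reads of the 48 genes at gastrula and 56.9% and 60.6% at dorsal closure. The median gene did not follow the sum. It stood at 27.1 and 17.5 CPM at gastrula, 38.8 and 47.9 CPM at germ band extension, and 37.6 and 36.9 CPM at dorsal closure.

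**Figure D1:**
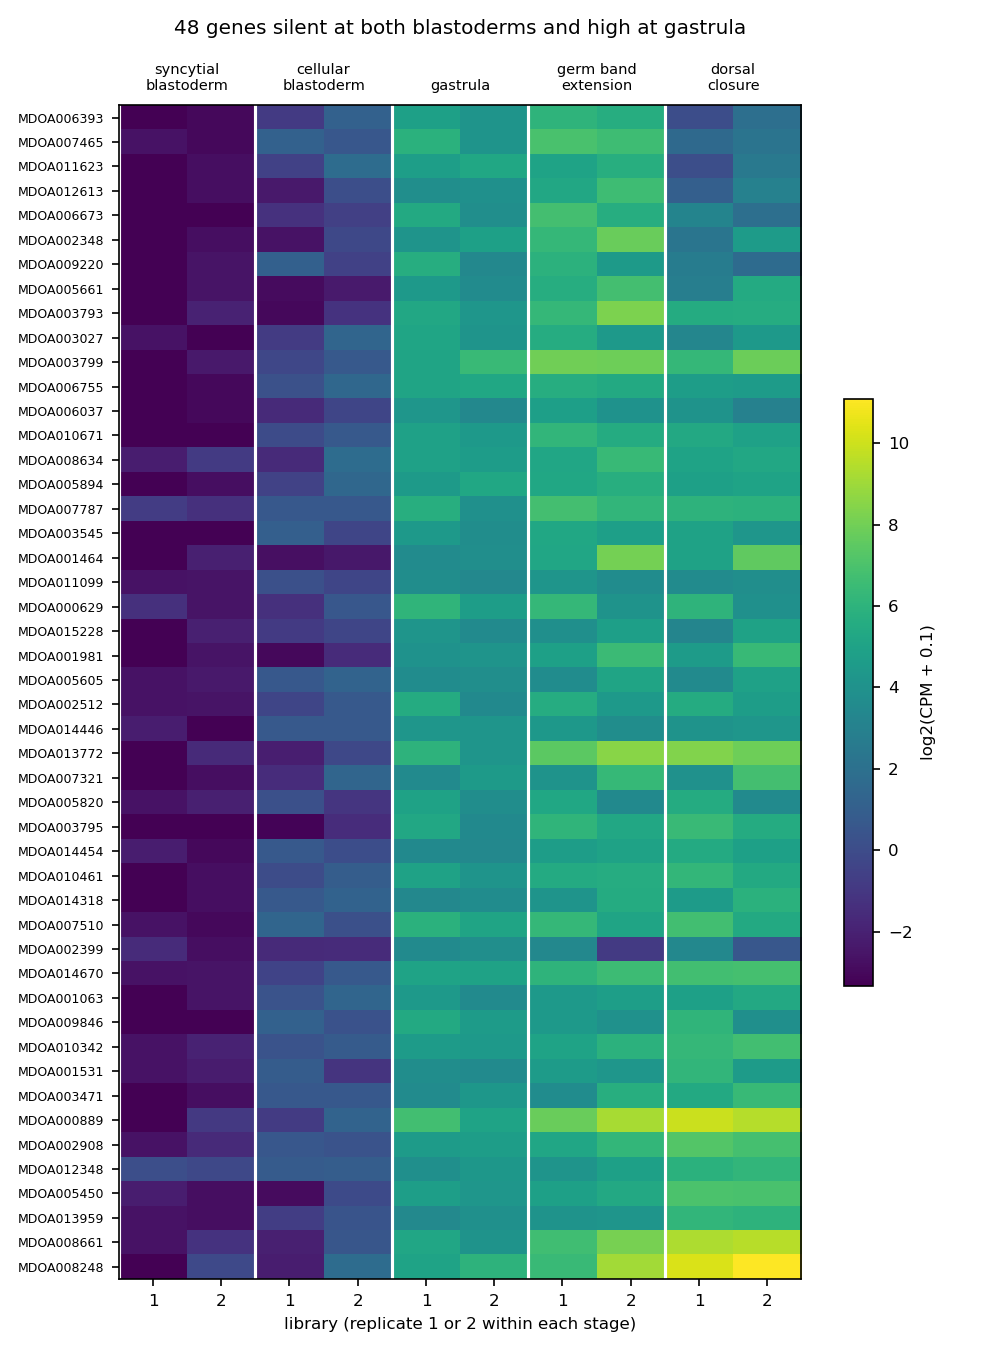
Level of each of the 48 genes (rows) in each of the 10 libraries (columns, 2 per stage), as log2(CPM + 0.1), with rows ordered by the fitted log2 change from germ band extension to dorsal closure. The first 4 columns are dark for every gene by the rule that chose them, and the last 2 columns separate the genes that were low at dorsal closure, at the top, from those that were highest there, at the bottom.

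At syncytial blastoderm most of the genes lay at the limit of detection. In replicate 1, 27 of the 48 had 0 reads, which allows up to 0.184 CPM each, and 44 had no more than 3 reads. In the deeper replicate 2, 7 had 0 reads, which allows up to 0.0706 CPM each, and 32 had no more than 3. MDOA003545, MDOA003795, MDOA006673, MDOA009846 and MDOA010671 had 0 reads in both libraries. These limits cover counting error only.

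At cellular blastoderm every one of the 48 genes had at least 1 read in both libraries. The median was 0.628 CPM in replicate 1 and 1.38 CPM in replicate 2, and 35 of the 48 genes were higher in replicate 2. Over all 11286 genes tested, replicate 2 was the higher cellular blastoderm library for 45.4%, and for 39.7% of those with a cellular blastoderm mean below 2 CPM. The traces at this stage thus lay mostly in replicate 2. For example, MDOA008248 had 10 reads in replicate 1 and 152 in replicate 2 (0.12 and 3.32 CPM), and MDOA008634 had 19 and 154 reads (0.227 and 3.37 CPM). The opposite order was seen in MDOA009220, with 171 and 27 reads (2.05 and 0.59 CPM), and MDOA001531, with 144 and 16 reads (1.72 and 0.35 CPM). The fewest reads at this stage were in MDOA001464, with 4 in each library, and MDOA005661, with 3 and 5.

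Gastrula levels ran from 10.5 to 106 CPM in replicate 1 and from 10.3 to 88.7 CPM in replicate 2, and 31 of the 48 genes were higher in replicate 1. Between cellular blastoderm and gastrula of the same replicate number, the level differed by 6.73-fold to 3330-fold in replicate 1 (median 42.6) and by 4.72-fold to 155-fold in replicate 2 (median 14.8). The largest value in replicate 1 belonged to MDOA003795, which had a single read at cellular blastoderm there, and the largest in replicate 2 to MDOA001464, so both rest on very few reads. Because the rule used these stages, the size of the step is a property of the choice.

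The genes were selected on their syncytial blastoderm, cellular blastoderm and gastrula values, and as a description the rule was also applied to the libraries of a single replicate number. In replicate 1 alone, 90 genes met it, of which 44 are among the 48, so that their replicate 2 values had chosen them too. For these 44 a higher level at gastrula than at cellular blastoderm was fixed in advance. The counts over all 90 are thus partly set by the choice and are no test of the step. In replicate 2, 90 of these 90 stood higher at gastrula than at cellular blastoderm and 83 were more than 4 times as high, against 42.8% and 14.7% of all genes tested. Of the 46 that are not among the 48, 46 stood higher there and 39 were more than 4 times as high. Among the 3731 genes tested that were below the same blastoderm limits in replicate 1, the shares were 56.6% and 36.8%. The medians of the 90 genes in replicate 2 were 0.0706 CPM at syncytial blastoderm and 1.13 CPM at cellular blastoderm, against 12.9 CPM at gastrula. In replicate 2 alone the rule chose 61 genes, 36 of them among the 48, for which the same limit holds. In replicate 1, 61 of these stood higher at gastrula than at cellular blastoderm and 55 were more than 4 times as high, against 48.4% and 15.1% of all genes tested. Of the 25 that are not among the 48, the counts were 25 and 19. The shares were 60% and 38.8% among the 3777 genes tested that were below the blastoderm limits in replicate 2. All 3 floors were met in both replicates taken singly by 32 genes. Without gastrula replicate 2, 90 genes met the full rule. All 48 were bound to be among them, since leaving out a gastrula library only loosens the rule.

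The genes nearest each floor lay close to it on either side, which says nothing of their levels in other libraries. At the gastrula floor, MDOA006037 was just inside, with 10.3 CPM in its lower library, and MDOA008971 just outside, with 9.9 CPM. At the cellular blastoderm limit MDOA011623, with a mean of 1.96 CPM, was just inside and MDOA010419, with 2.04 CPM, just outside. At the syncytial blastoderm limit the values were 0.982 CPM for MDOA012348 inside and 1.11 CPM for MDOA009212 outside.

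The 8 genes with the most reads at gastrula took different later courses. MDOA000889 was at 106 and 33 CPM at gastrula, 225 and 596 CPM at germ band extension, and 998 and 726 CPM at dorsal closure. MDOA008248 stood at 32.6 and 63.5 CPM, then 85.4 and 554 CPM, and then 1230 and 2180 CPM. Both were higher at each successive stage, with no overlap between the libraries of neighbouring stages. MDOA013772, at 63.8 and 18.2 CPM at gastrula, was at 176 and 365 CPM at germ band extension and at 323 and 245 CPM at dorsal closure, where the late stages overlapped. MDOA003799 went from 33.8 and 88.7 CPM at gastrula to 249 and 238 CPM at germ band extension, and was at 78.7 and 234 CPM at dorsal closure.

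Among the other 4, MDOA007510 held 59.5 and 34.7 CPM at gastrula, 78.9 and 34.4 CPM at germ band extension, and 106 and 43.3 CPM at dorsal closure, with overlapping stages. MDOA000629 was at 67.8 and 25.9 CPM, then 78.3 and 17.1 CPM, and then 66.9 and 14.9 CPM. Its replicates stood further apart than its stages. MDOA006755 was at 34 and 38.2 CPM at gastrula, 49.4 and 42.8 CPM at germ band extension, and 25.6 and 23.7 CPM at dorsal closure, so all 3 stages stood apart and replicates lay close. MDOA007465 had 58.4 and 17.5 CPM at gastrula. It reached 123 and 97.3 CPM at germ band extension and was nearly lost at dorsal closure, with 2.91 and 4.59 CPM.

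**Figure D2:**
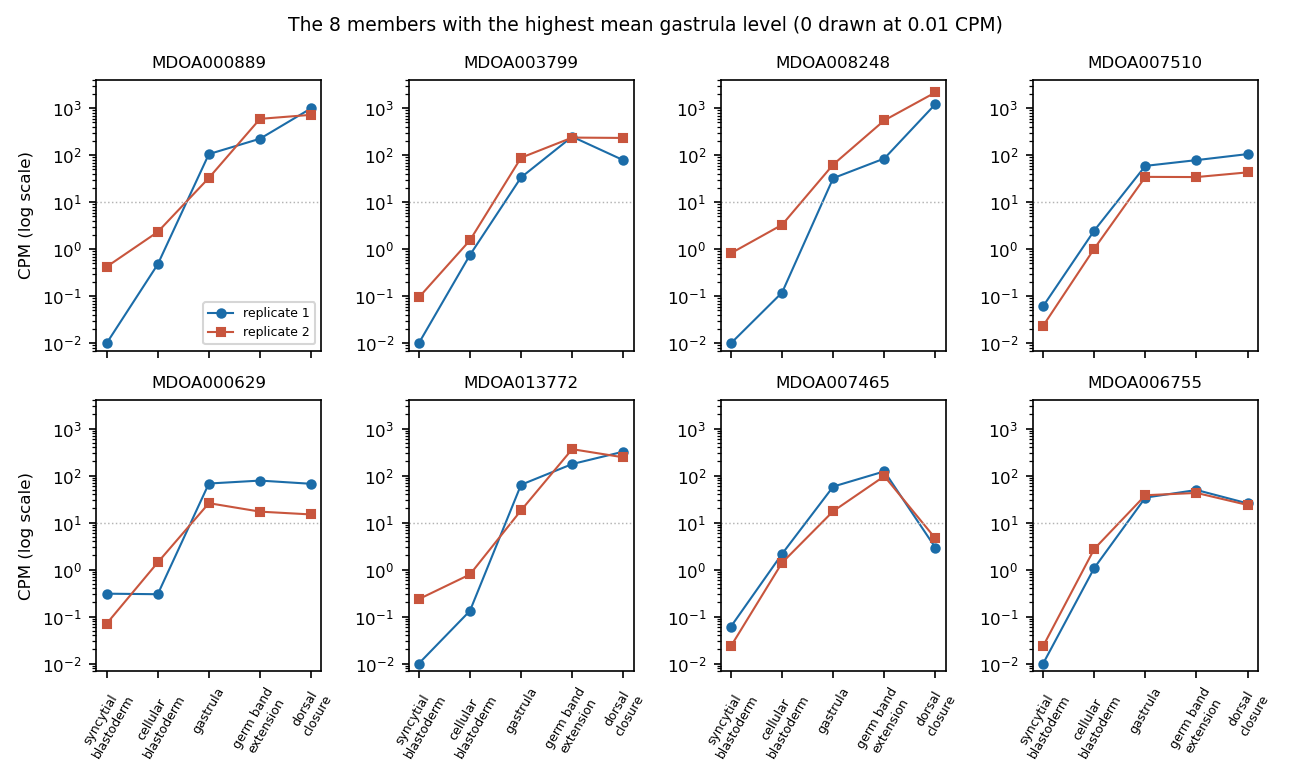
CPM (log scale) of the 8 genes with the highest mean gastrula level at each stage, with a line per replicate number, a dotted line at 10 CPM and values of 0 drawn at 0.01 CPM. All 8 pass from below 4 CPM at cellular blastoderm to above 10 CPM at gastrula by the rule. MDOA008248 goes on to 1230 and 2180 CPM at dorsal closure, and MDOA007465 drops to 2.91 and 4.59 CPM.

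In most of the genes the highest stage mean came after gastrula. It was at gastrula in 2 of the 48 genes, at germ band extension in 24 and at dorsal closure in 22. Shares over all genes were not worked out for these 3 counts. Both germ band extension libraries were above both gastrula libraries in 29 genes (60.4%), against 19.2% of all genes tested, and both were below in 2 genes, against 8.57%. With library sizes scaled by TMM or by DESeq2, which temper the weight of a few very abundant genes, 28 and 29 genes were higher in this way. Within replicate 1, 43 of the 48 genes were higher at germ band extension than at gastrula (against 61.8% of all genes tested), and within replicate 2, 42 were (against 48.1%). The median ratio of germ band extension to gastrula was 1.56 in replicate 1 and 2.67 in replicate 2. It was more than 4-fold in 2 genes of replicate 1, against 7.66% of all genes tested, and in 12 of replicate 2, against 14.7%. Genes above 4-fold in replicate 1 were MDOA003799 (7.36-fold) and MDOA002348 (4.53-fold). The gastrula values had chosen the genes, so this step was not tested. The number of genes highest at gastrula was 7 without gastrula replicate 2, 5 without germ band extension replicate 1, and 1 without gastrula replicate 1.

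Both gastrula libraries stood above both germ band extension libraries in MDOA009846 and MDOA002399. MDOA009846 was at 42.4 and 23.7 CPM at gastrula, 22.5 and 15.8 CPM at germ band extension, and 70.1 and 14.3 CPM at dorsal closure. MDOA002399 was at 12 and 13.7 CPM at gastrula, then at 10.3 and 0.436 CPM at germ band extension, and at 10.3 and 1.42 CPM at dorsal closure. It was the only one of the 48 genes below 10 CPM in a germ band extension library. In replicate 1 it hardly moved after gastrula and in replicate 2 it was below 2 CPM at both later stages.

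Genes that had already started at cellular blastoderm gave a different picture. This comparison group met the same syncytial blastoderm and gastrula floors but had a cellular blastoderm mean of 2 CPM or more, and held 180 genes. In it the median ratio of germ band extension to gastrula was 1.1 in replicate 1 and 0.975 in replicate 2, and both germ band extension libraries were above both gastrula libraries in 41 genes (22.8%). Both dorsal closure libraries were above both gastrula libraries in 27 of the 180 genes (15%) and in 22 of the 48 (45.8%), against 38.1% of all genes tested. Both were below in 88 of the 180 (48.9%) and in 8 of the 48 (16.7%), against 29.0%. The difference between the groups was not tested, since the floors that define them use the gastrula libraries.

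No library of germ band extension or dorsal closure had been used for the choice. Between these stages some of the 48 genes were higher and others lower, as was also the case among all genes tested. Both dorsal closure libraries were above both germ band extension libraries in 11 of the 48 genes (22.9%), against 32.7% of all genes tested. Both were below in 14 (29.2%), against 25.8%, and in 23 the stages overlapped. The balance depended on the scaling, with 9 above and 17 below on TMM-scaled CPM and 16 above and 9 below on DESeq2-scaled CPM.

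In edgeR's quasi-likelihood test over all 10 libraries, at an adjusted p under 0.05, 3 of the 48 genes fell at this step (6.25%) and 0 rose. Over all 11286 genes tested, 7.55% fell and 9.60% rose. All 48 genes passed the filter on low counts. At an unadjusted p under 0.05 stood 9 genes, 2 of them higher at dorsal closure. The other tools without a replicate block called 2 genes higher and 6 lower (DESeq2) and 3 higher and 7 lower (limma-voom). Their shares over all genes were not worked out, so these counts have no background beside them. The spread in edgeR's test was estimated from all 10 libraries, among them those the rule used. Fitted to only the libraries of germ band extension and dorsal closure, edgeR called 1 of the 48 genes lower and 0 higher. The share over all genes was not worked out for this fit either. With the replicate number as a block, edgeR called 7 genes lower (14.6%) and 3 higher (6.25%), against 20.1% in each direction over all genes. The share that fell without the block was thus near that of all genes, and the other 3 shares were lower. The median fitted log2 change was -0.08 for the 48 genes and 0.01 for all genes tested. With DESeq2's size factors in edgeR both moved up together, to 0.28 and 0.39, so the 48 genes stayed slightly below the median of all genes under either scaling.

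In the comparison group, 33 of 180 genes fell (18.3%) and 4 rose (2.22%) in the same edgeR test, and 68 fell (37.8%) and 7 rose (3.89%) with the block. Its median log2 change was -0.97. No test of the difference between the 48 genes and this group was made.

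The 3 genes that fell with and without the block were MDOA007465, MDOA006393 and MDOA006673. MDOA007465, whose values are given above, had a log2 change of -4.89 ± 0.71 (SE, edgeR adjusted p = 0.0071, and 0.00064 with the block). Fitted to only the libraries of germ band extension and dorsal closure, its edgeR adjusted p was 0.043. Its level was 42.2-fold lower at dorsal closure in replicate 1 and 21.2-fold lower in replicate 2, far more than the distance between replicates at either stage.

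MDOA006393 was at 29.7 and 17.4 CPM at gastrula, 67.4 and 50.1 CPM at germ band extension, and 0.962 and 3.71 CPM at dorsal closure. Its log2 change was -4.64 ± 1.05 (edgeR adjusted p = 0.022, and 0.0025 with the block). For MDOA006673 the values were 42.5 and 14.1 CPM, 111 and 50.5 CPM, and 9.14 and 3.74 CPM, with a log2 change of -3.68 ± 0.79 (edgeR adjusted p = 0.022, and 0.0028 with the block). In both genes the libraries of the late stages did not overlap. Fitted to only the libraries of these late stages, the edgeR adjusted p was 0.068 for MDOA006393 and 0.062 for MDOA006673. Without germ band extension replicate 1 the edgeR adjusted p was 0.083 and 0.11 for these 2 genes. It was 0.097 and 0.073 without dorsal closure replicate 1, and 0.076 for MDOA006673 without dorsal closure replicate 2.

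A further 4 genes fell with the block and had an adjusted p above 0.05 without it. These were named after the blocked test was seen. MDOA011623 was at 27.4 and 38.4 CPM at gastrula, 32.6 and 53.3 CPM at germ band extension, and 0.986 and 5.51 CPM at dorsal closure. Its log2 change with the block was -4.18 ± 0.67 (edgeR adjusted p = 0.0018, and 0.057 without). MDOA012613 went from 13.9 and 15 CPM to 40.6 and 98 CPM and then to 1.94 and 7.9 CPM, with -4.05 ± 0.71 (edgeR adjusted p = 0.0026, and 0.061 without). In each of these genes the replicate with more reads at germ band extension also had more at dorsal closure.

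The same held for the remaining pair. MDOA002348 was at 17.3 and 29.7 CPM at gastrula, 78.5 and 224 CPM at germ band extension, and 4.67 and 23.7 CPM at dorsal closure. With the block its log2 change was -3.69 ± 0.57 (edgeR adjusted p = 0.0015, and 0.087 without). MDOA009220, at 51.3 and 10.7 CPM at gastrula, was at 61 and 23.4 CPM at germ band extension and 6.54 and 3.17 CPM at dorsal closure, with -3.09 ± 0.68 (edgeR adjusted p = 0.0072, and 0.066 without).

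The 7 genes were at 10 CPM or more in every germ band extension library, as they were at gastrula by the rule. Except for MDOA002348 in replicate 2, they were below 10 CPM in every dorsal closure library. No gene of the 48 was below 1 CPM in both dorsal closure libraries, and 6 were below 10 CPM in both. In every one of the 7 the germ band extension mean was the highest of the 5 stages.

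**Figure D3:**
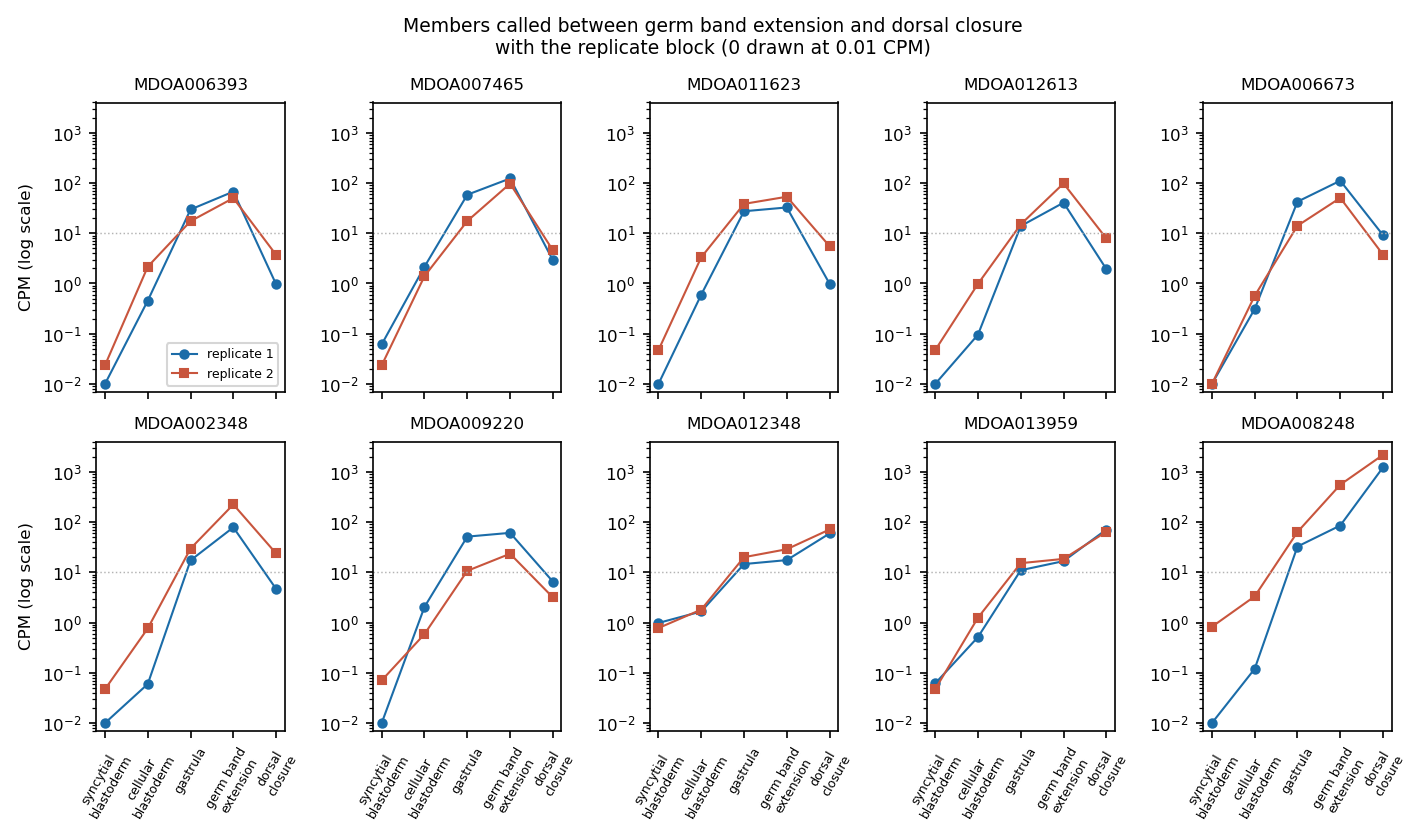
CPM (log scale) at each stage, with a line per replicate number, of the 10 genes called between germ band extension and dorsal closure by edgeR with the replicate block; the dotted line is 10 CPM and values of 0 are drawn at 0.01 CPM. The first 7 panels peak at germ band extension and end between 0.962 and 23.7 CPM, and the last 3 are highest at dorsal closure.

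The 3 genes that rose with the block were also named after it was seen. MDOA008248, already described, had a log2 change of 3.03 ± 0.85 (edgeR adjusted p = 0.022, and 0.33 without the block). MDOA012348 was at 14.6 and 20 CPM at gastrula, 17.5 and 28.8 CPM at germ band extension, and 59.3 and 71.2 CPM at dorsal closure. Its log2 change was 1.47 ± 0.42 (edgeR adjusted p = 0.023, and 0.1 without). MDOA013959 was at 11 and 15.2 CPM, then 16.7 and 18.5 CPM, and then 70.9 and 64.1 CPM, with 1.92 ± 0.46 (edgeR adjusted p = 0.011, and 0.062 without). In all 3 genes both dorsal closure libraries stood above both germ band extension libraries. Without dorsal closure replicate 1, 0 genes were called higher with the block, and without germ band extension replicate 1 it was 1. Without germ band extension replicate 2 and without cellular blastoderm replicate 1, the number was 5 each. In these blocked fits MDOA008248 lost its call when either germ band extension library (edgeR adjusted p = 0.19 lacking replicate 1 and 0.077 lacking replicate 2) or dorsal closure replicate 1 (0.15) was left out. MDOA012348 was not called without gastrula replicate 1 (edgeR adjusted p = 0.052), germ band extension replicate 1 (0.12), dorsal closure replicate 1 (0.081) or dorsal closure replicate 2 (0.056). MDOA013959 lost its call without dorsal closure replicate 1 (edgeR adjusted p = 0.094). The 7 genes that fell with the block stayed called with each library left out.

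Of the other genes whose late libraries did not overlap, none passed edgeR's test with TMM scaling, with or without the block. With the block, limma-voom called 18 of the 48 genes (8 higher and 10 lower) and DESeq2 called 14 (7 and 7), against 10 in edgeR. Shares called over all genes were not worked out for limma-voom and DESeq2. MDOA002908, MDOA005450, MDOA008661 and MDOA010342 were called higher by both of those tools and not by edgeR with TMM scaling. With DESeq2's size factors and the block, edgeR also called MDOA002908 (adjusted p = 0.027), MDOA008661 (0.045) and MDOA010342 (0.027). On total counts with the block, edgeR called MDOA002908 as well (adjusted p = 0.048). Higher at dorsal closure in both libraries were MDOA000889, MDOA001063, MDOA001531, MDOA002908, MDOA005450, MDOA008661, MDOA010342 and MDOA014670. Among these, MDOA008661 stood at 100 and 286 CPM at germ band extension and 644 and 735 CPM at dorsal closure (edgeR adjusted p = 0.066 with the block). MDOA005450 was at 29.5 and 40.8 CPM and then at 131 and 126 CPM (edgeR adjusted p = 0.091 with the block). Dorsal closure replicates lay close together in both genes.

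Lower at dorsal closure in both libraries, without a call in edgeR with TMM scaling, were MDOA003793, MDOA003799, MDOA005661, MDOA005894, MDOA006755, MDOA007787 and MDOA010671. MDOA005661 stood at 50 and 110 CPM at germ band extension and 7.18 and 44.3 CPM at dorsal closure (edgeR adjusted p = 0.052 with the block). MDOA003793 was at 77.5 and 302 CPM and then at 47.1 and 48.9 CPM (edgeR adjusted p = 0.11 with the block), with germ band extension libraries further apart than the stages were in replicate 1. Both of these and MDOA006755 were called lower in limma-voom with the block.

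**Figure D4:**
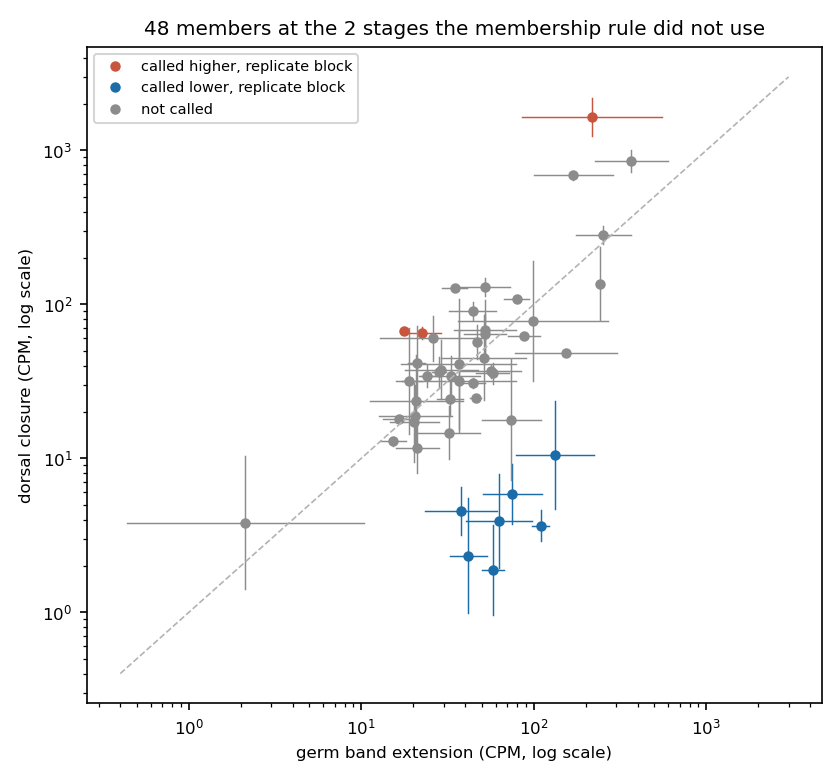
Level at germ band extension (x axis) and dorsal closure (y axis), both in CPM on log scales, of the 48 genes; points are geometric means of the 2 libraries, thin lines join the 2 libraries, and the dashed line marks equal levels. The 7 genes called lower with the replicate block lie well below the dashed line, and the isolated point at the left is MDOA002399, at 10.3 and 0.436 CPM at germ band extension.

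After gastrula, 47 of the 48 genes were at 10 CPM or more in both germ band extension libraries and 36 were in both dorsal closure libraries. The rule had set this level at gastrula, and 36 genes met it in all 6 libraries of the 3 later stages. Shares over all genes were not worked out for these counts. MDOA014446 varied least, with 19.1 and 18 CPM at gastrula, 20.8 and 13.3 CPM at germ band extension, and 17 and 19.1 CPM at dorsal closure, a 1.56-fold range. MDOA011099 lay between 10.7 and 18.2 CPM in these libraries, a 1.7-fold range. The range was 2.08-fold for MDOA006755, whose stages nevertheless stood apart, and 2.25-fold for MDOA005894, at 23.2 and 37.7 CPM, 38 and 52.2 CPM, and 28.7 and 33.1 CPM.

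Replicate 1 was above replicate 2 at gastrula, germ band extension and dorsal closure in 13 of the 48 genes (27.1%), against 37.3% of all genes tested. The reverse order held in 12 (25%), against 19.4%. Replicates lay more than 4-fold apart at gastrula in 2 of the 48 genes, at germ band extension in 6 and at dorsal closure in 9. The rule asked for 10 CPM or more in both gastrula libraries, so the gastrula count is partly set by the choice. Shares over all genes were not worked out for these counts. What sets the replicate numbers apart was not tested.

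Replicate 2 exceeded replicate 1 most at germ band extension in MDOA001464, MDOA008248 and MDOA007321. MDOA001464 was at 12.3 and 13.6 CPM at gastrula, 36.5 and 270 CPM at germ band extension, and 31.8 and 192 CPM at dorsal closure. MDOA007321 had 11.7 and 22.9 CPM, then 16.9 and 79.2 CPM, and then 15.4 and 108 CPM. In both genes replicate 1 stayed below 40 CPM throughout, while replicate 2 reached high levels by germ band extension and held them. MDOA001981 had the same shape, with 29 and 90 CPM at germ band extension and 23.9 and 85.1 CPM at dorsal closure.

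Replicate 1 was furthest above replicate 2 at germ band extension in MDOA002399, MDOA000629 and MDOA005820. The difference was 23.6-fold in MDOA002399, 4.57-fold in MDOA000629 and 3.43-fold in MDOA005820. It was 7.28-fold, 4.48-fold and 3.9-fold in these genes at dorsal closure. MDOA005820 was at 31.1 and 13.2 CPM at gastrula, 38.6 and 11.2 CPM at germ band extension, and 46.6 and 11.9 CPM at dorsal closure.

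**Figure D5:**
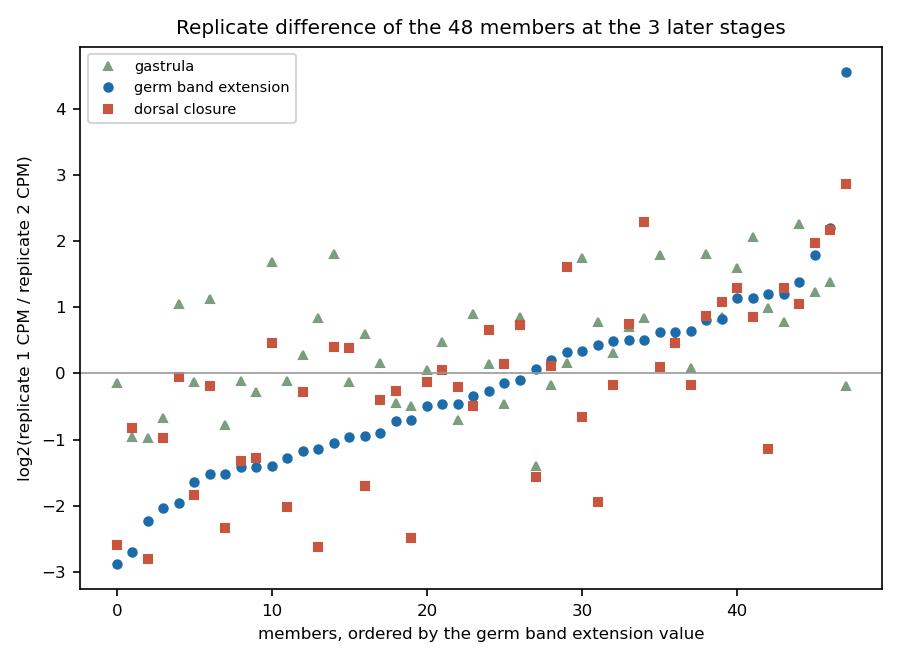
Log2 ratio of replicate 1 to replicate 2 CPM for each of the 48 genes at gastrula, germ band extension and dorsal closure, with genes ordered by the germ band extension value. Values above 0 are genes higher in replicate 1; the point at the far right is MDOA002399, 23.6-fold higher in replicate 1 at germ band extension.

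The remaining 12 genes were on from gastrula onward, and edgeR called none at the late step, with or without the block. In limma-voom with the block, MDOA003471 among them was called higher (adjusted p = 0.041). MDOA002512, MDOA003027, MDOA003471, MDOA003545, MDOA003795, MDOA005605, MDOA006037, MDOA008634, MDOA010461, MDOA014318, MDOA014454 and MDOA015228 had overlapping libraries at germ band extension and dorsal closure. Their germ band extension levels ran from 12.6 CPM, in MDOA005605 replicate 1, to 84.8 CPM, in MDOA008634 replicate 2. At dorsal closure they ran from 7.97 CPM, in MDOA006037 replicate 2, to 86.3 CPM, in MDOA003795 replicate 1. The widest late change among them in a single replicate was in MDOA003027, at 49 and 21.4 CPM and then at 9.84 and 21.7 CPM, so that replicate 1 was 4.98-fold lower and replicate 2 was level.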

How the data were processed

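The authors deposited a file of raw gene counts for each of 10 libraries of whole house fly embryos. STAR and HTSeq are listed, without versions, per the submitters' processing notes. Genome build, annotation, strand setting and read filters: not given in the sources used here. Stages were taken from the labels, with 2 replicates each, which the series' design text calls biological. Reads assigned to no gene (10.5% to 25% of a file), aligned to more than 1 place (5.31% to 10.7%) or ambiguous (0.353% to 0.661%) stand in rows that name no gene and were left out. For a gene that overlaps another, on either strand, or has a close copy, the count is therefore uncertain.

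Levels are CPM on the sum of gene rows. The test of dorsal closure against germ band extension used edgeR 4.0.16 in R 4.3.3: filterByExpr by stage (11286 genes kept), TMM, a quasi-likelihood fit with robust dispersions to all 10 libraries with 5 residual degrees of freedom, and Benjamini-Hochberg adjustment over all genes tested, with calls at an adjusted p under 0.05. Each SE is the fitted change without a prior count over the square root of its F statistic. Alternatives used DESeq2 1.42.0, limma-voom (limma 3.58.1), other scalings and filters, single libraries left out, and the replicate number as a block (4 residual degrees of freedom). The labels do not say what a replicate number marks. The difference between replicates 2 and 1 in log2 CPM was correlated over genes in all 10 pairs of stages (r from 0.32 to 0.61, above the level of 0.1 set for pairing), so blocked values are given beside the results. Simulated data for this step had 200 changed genes at a mean of at least 5 CPM among 11274 tested. There edgeR without the block recovered 42% of 16-fold and 0% of 4-fold changes, with 0% false calls. In the data far more genes were called at this step, 1084 higher and 852 lower, which eases the adjustment of p. The simulated recovery need not carry over to the data, and smaller changes could be missed.

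The members and all groups were chosen with earlier results of these data known. Named genes were the 8 with the highest gastrula mean, those called at the late step without the block (up to 6 in each direction, at 20 CPM or more in the higher stage), those below 1 CPM in both dorsal closure libraries, the 4 with the smallest range over the later libraries, the 3 most apart in each direction between germ band extension replicates (0.5 CPM added), those next to a floor, any with 0 reads in all 4 blastoderm libraries, and runs of 3 or more members whose identifier numbers differ by at most 2. The last 2 kinds were not found. Gene lists had been written, but 0 identifiers could be paired with names, so none was used.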

Additional observations from a re-analysis of the deposited data

How the results depend on the processing

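Over all genes tested, edgeR with TMM scaling called 9.60% higher and 7.55% lower at dorsal closure, and 20.1% in each direction with the replicate block. For the other settings below, shares over all genes were not worked out. Their counts may therefore follow the number of calls over all genes and are not results about the members. With the members kept, the number of genes called higher at dorsal closure than at germ band extension was 0 in edgeR. It was 3 with the replicate block, 1 with DESeq2's size factors, 1 with the upper quartile, 1 with a stricter filter (5 CPM in at least 2 libraries), 2 in DESeq2 and 3 in limma-voom, and 0 with any single library left out. The number called lower was 3, and 7 with the replicate block, 5 with no filter, 6 in DESeq2, 7 in limma-voom and 1 with only the libraries of these 2 stages. It ranged from 1 (without germ band extension replicate 1 or without dorsal closure replicate 1) to 5 (without either cellular blastoderm library). Among fits with the replicate block chosen after seeing the data, the 3 called higher became 8 in limma-voom, 7 in DESeq2, 6 with DESeq2's size factors, and 0 to 5 with a library left out. Those called lower numbered 7 to 8 with a library left out, 10 in limma-voom and 7 in DESeq2. The membership rule found between 48 and 90 genes with a library left out, and 64 on TMM-scaled and 69 on DESeq2-scaled CPM, with 47 and 48 of the members among them. Without cellular blastoderm replicate 1 the 49 genes found held 36 of the 48 members, and without cellular blastoderm replicate 2 the 52 found held 44. Leaving out a syncytial blastoderm or gastrula library only loosens the rule, so all 48 were bound to be found there, which says nothing of their stability. The number of members highest at gastrula was 2, 1 on DESeq2-scaled CPM and 1 to 7 with a library left out. All 10 genes called with the block kept their direction under every alternative fit, while 21 of the 48 members turned theirs under at least 1 of them. In syncytial blastoderm replicate 1, the shallowest library, a count of 3 is 0.184 CPM, so lower levels cannot be told from 0 there. The cause of these differences was not tested.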

Other observations

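Some members carried neighbouring identifier numbers, a pattern chosen after the values were seen. MDOA003793, MDOA003795 and MDOA003799 were the closest. MDOA003793 and MDOA003795 had 39.2 and 39.9 CPM in gastrula replicate 1 and 18.9 and 11.4 CPM in replicate 2, and MDOA003799 had 33.8 and 88.7 CPM. The numbers between them did not share this course: MDOA003798 was at 69.4 and 56.9 CPM at syncytial blastoderm, MDOA003797 had 2.68 and 1.36 CPM at gastrula but 49.2 and 13.1 CPM by dorsal closure, and MDOA003796 had 0 reads in every library. MDOA014446 and MDOA014454 were the only other members whose numbers lay within 10 of each other. Whether neighbouring numbers mean neighbouring genes was not tested.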
